A study of Mus musculus with 4 samples.

Results

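The acyl-CoA synthetases, the acyl-CoA thioesterases and the acyl-CoA-binding domain proteins were followed in the inguinal depot of white adipose tissue (ingWAT), which lies under the skin. They were taken by symbol, as the genes whose names begin with *Acot*, *Acsl*, *Acsm*, *Acss*, *Acsbg*, *Acsf* or *Acbd* and a number. The rule found 35 of the 19030 genes listed, and 25 of the 35 had a mean of at least 1 FPKM over the 4 libraries and could be tested. FPKM is a fragment count corrected for transcript length and library size, so that levels of different genes can be set beside each other.

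A fatty acid, or acetate, enters metabolism only after a synthetase has joined it to coenzyme A (CoA) at the cost of ATP. Thioesterases cut the bond again and set the acid and CoA free, and binding proteins hold acyl-CoA in solution and carry it between membranes. In adipocytes the same acyl-CoA serves triglyceride synthesis, chain elongation and signalling, and in thermogenic adipocytes it is also burnt in mitochondria. The families differ mainly in the chain length they take and in the compartment where they sit.

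The study compared Ctrl mice, in which loxP sites flank exon 2 of *Oct3* (gene symbol *Slc22a3*), with cKO mice, which carry the same floxed alleles and an Adiponectin-Cre transgene. The Cre is active in adipocytes, so the other cells of the tissue keep *Oct3*. All mice were of the C57BL/6 strain and 3 months old, and were kept at 4°C as a cold challenge. The methods give male mice for it and a milder temperature before the 4°C, while a figure legend gives 4°C throughout. There were 2 libraries of each genotype, how many mice each holds is not stated, and the p-values therefore measure only the spread between these libraries, which may be technical.

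*Slc22a3* had 16.95 and 17.68 FPKM in the Ctrl libraries and 9.07 and 9.50 in the cKO libraries, as a value for the whole gene that does not show exon 2 by itself. The depth is not given, and low values of short RNA genes, which move in steps of 1 read, put it at about 17400000 to 18150000 reads a library. Between the 2 libraries of a genotype the log2 values differed with an SD of 0.194 (Ctrl) and 0.201 (cKO), and between libraries of different genotypes with an SD of 0.400 to 0.456. The tissue held other cells than adipocytes, and their markers moved with genotype. Of the skeletal muscle markers tested, 11 of 11 fell, and their summed level was 1687 to 2510 FPKM in Ctrl and 9.38 to 11.9 in cKO, with none listed at 0. Of the B cell markers 8 of 8 rose (233 to 262 FPKM in Ctrl, 364 to 412 in cKO), and of the T cell markers 6 of 7 (101 to 104 in Ctrl, 139 to 182 in cKO), also with none listed at 0. *Trac*, a further T cell marker, was not among the genes listed. Of the endothelial markers 4 of 7 fell (220 to 223 FPKM in Ctrl, 188 to 194 in cKO), and of the macrophage markers 4 of 9 fell and 1 rose (1024 to 1173 in Ctrl, 1074 to 1091 in cKO). Of the hepatocyte markers 2 of 3 fell (982 to 1024 in Ctrl, 701 to 825 in cKO). Nearly all of that sum was *Cyp2e1*, at 997.73 and 955.50 FPKM in Ctrl and 688.07 and 807.64 in cKO. *Alb*, which also fell, was at 24.42 and 24.41 FPKM in Ctrl and 11.47 and 14.89 in cKO. *Serpina1a* was at 1.51 to 1.85 FPKM, and *Apoa1* and *Ttr* were at 0.45 FPKM or less in every library. *Cps1*, a further hepatocyte marker, was not among the genes listed. Whether hepatocytes were present was not tested. The 7 epithelial markers listed were too low to test, with sums of 1.54 to 2.23 FPKM. Of the brown and beige fat markers 11 of 13 rose (1634 to 1945 FPKM in Ctrl, 4396 to 5177 in cKO), and of the white adipocyte markers 6 of 11 fell (38919 to 40887 in Ctrl, 29375 to 30043 in cKO). In such bulk tissue, fewer cells of a type and less RNA per cell cannot be told apart, and the part of these markers in the results that follow was not tested.

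Among the 25 acyl-CoA genes 11 were higher and 2 lower in cKO, by limma on log2(FPKM + 1) with Benjamini-Hochberg adjustment over all 12658 genes tested and a threshold of 0.05. Over all genes tested, 12.0% were called higher, 13.8% lower and 25.8% either way. At an unadjusted p under 0.05 there were 16 of the 25, and 4873 of the 12658 genes tested. For the 25 genes the log2 fold changes had a median of 0.17, against -0.0060 over all genes tested, and the range ran from -0.36 for *Acss2* to 1.56 for *Acot11*. Both cKO libraries lay above both Ctrl libraries for 16 of the 25 genes and below them for 5, where 31.9% and 34.6% of all genes did so. Fold changes compare cKO with Ctrl as log2(FPKM + 1), and for genes at low FPKM they are understated by the added 1. Leaving out Ctrl replicate 1 left 5 genes called higher and 0 lower.

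**Figure D1:**
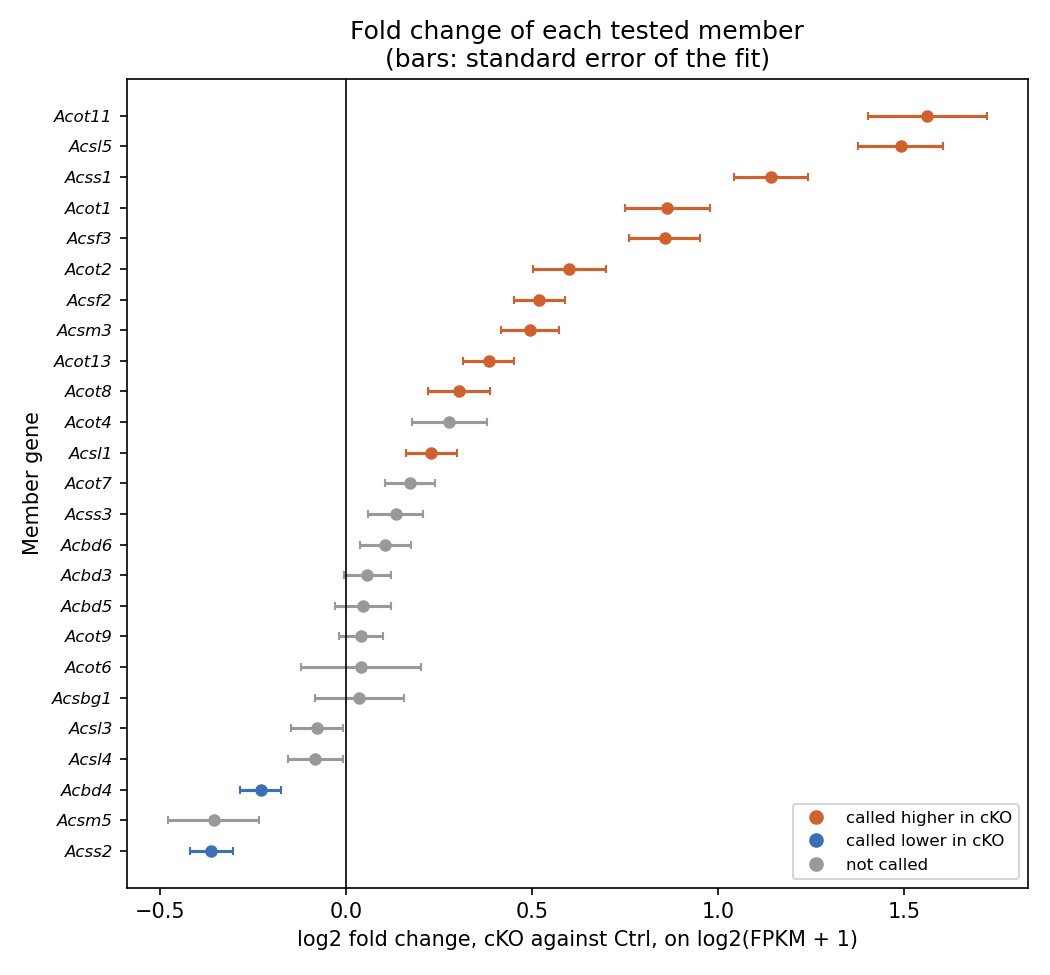
Log2 fold change, cKO against Ctrl, of each of the 25 genes tested (points) with the standard error of the limma fit (bars); orange genes were called higher, blue ones lower and grey ones neither. *Acot11* (1.56), *Acsl5* (1.49) and *Acss1* (1.14) lie beyond 1, and the 2 genes called lower, *Acss2* (-0.36) and *Acbd4* (-0.23), lie nearer to 0.

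The thioesterases were the family with the most genes called, and also the family with the most genes tested. Of 13 listed *Acot* genes 9 could be tested, of which 5 rose and 0 fell, with a median log2 fold change of 0.30. Over all genes tested, 12.0% were called higher and 13.8% lower. In the fit to all 4 libraries the fold change was positive for each of the 9. The summed level of the family was 161 to 184 FPKM in the Ctrl libraries and 271 to 301 in the cKO libraries. That sum mostly follows *Acot11*, whose mean was higher by 77.1 FPKM in cKO, against 16.8 for *Acot13* and 9.4 for *Acot2*, the next.

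*Acot11* (Entrez gene 329910, GRCm38 chr4:106744555-106805007) encodes a thioesterase of long-chain acyl-CoA, also known as Them1 and as brown fat-inducible thioesterase. It had 32.17 and 46.16 FPKM in the Ctrl libraries and 126.43 and 106.07 in the cKO libraries. Both cKO libraries were far above both Ctrl libraries, although the Ctrl libraries also stood apart from each other. The mean went from 39.2 ± 9.89 to 116 ± 14.4 FPKM (SD, n = 2 each), which is 2.97 times as much (log2 fold change 1.56, standard error 0.160, limma, adjusted p = 0.00101). Of the 50-base words of its transcript 19.0% also occur in a transcript of *Fam151a*, which overlaps it on the opposite strand. No gene was listed as *Fam151a*, so its own level is not known. The library protocol as described names no step that marks the strand.

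*Acot13*, or Them2, a thioesterase associated with mitochondria, had 51.73 and 56.79 FPKM in Ctrl and 73.47 and 68.69 in cKO. It rose less (log2 fold change 0.38, standard error 0.068, limma, adjusted p = 0.00727), and without Ctrl replicate 1 it was no longer called (adjusted p = 0.0821). *Acot13* was thus the more abundant of the pair in both Ctrl libraries and *Acot11* in both cKO libraries. The share of *Acot11* in the summed FPKM of the family was 22.5% ± 3.65 in Ctrl libraries against 40.6% ± 2.05 in cKO libraries (SD, n = 2 each), whereas that of *Acot13* was 31.5% ± 0.835 and 24.9% ± 0.649.

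*Acot2*, the mitochondrial enzyme of the type I family, and *Acot1*, its cytosolic neighbour, lie side by side on chromosome 12 (chr12:83987861-83993877 and chr12:84009502-84017670), ahead of *Acot4*, *Acot3*, *Acot5* and *Acot6*. Their coding sequences are 95.5% identical over 1239 aligned bases, with 4 identical stretches at least as long as a 50-base read. The longest of these, 273 bases, is shown because a read that lies wholly inside it fits both genes equally well. Capitals mark the 7 bases that differ, all near the ends (bases 997 to 1295 of the *Acot2* and 874 to 1172 of the *Acot1* coding sequence, GENCODE vM21).
Acot2: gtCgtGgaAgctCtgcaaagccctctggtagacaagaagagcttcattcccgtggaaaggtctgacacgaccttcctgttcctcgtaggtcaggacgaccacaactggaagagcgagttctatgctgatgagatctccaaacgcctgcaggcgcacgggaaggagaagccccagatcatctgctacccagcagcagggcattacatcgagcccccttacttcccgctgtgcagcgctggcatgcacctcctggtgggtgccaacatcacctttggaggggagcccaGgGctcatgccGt
Acot1: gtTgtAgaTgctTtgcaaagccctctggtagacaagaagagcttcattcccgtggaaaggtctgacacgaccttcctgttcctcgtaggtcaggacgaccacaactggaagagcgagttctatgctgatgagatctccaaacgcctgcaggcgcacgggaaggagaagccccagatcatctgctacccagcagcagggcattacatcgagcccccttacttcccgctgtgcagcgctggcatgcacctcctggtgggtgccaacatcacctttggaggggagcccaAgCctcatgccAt

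*Acot2* had 15.97 and 18.29 FPKM in Ctrl and 28.73 and 24.32 in cKO. It rose by 0.60 on the log2 scale (standard error 0.097, limma, adjusted p = 0.00513). *Acot1* was the lower of the pair by far. It had 1.44 and 1.13 FPKM in Ctrl and 3.25 and 3.05 in cKO, or about 59 and 47 reads against 128 and 122 at the estimated depth. On the log2 scale it rose by 0.86 (standard error 0.114, limma, adjusted p = 0.00233), and the mean was 2.45 times as high in cKO. Of the 50-base words of the *Acot1* transcript 23.9% also occur in *Acot2*, and 24.5% of those of *Acot2* in *Acot1*, so how much of the *Acot1* value comes from reads of *Acot2* is uncertain. Leaving out Ctrl replicate 1 ended the call of *Acot2* (adjusted p = 0.0769) but not that of *Acot1*.

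*Acot8*, a peroxisomal thioesterase, had 15.13 and 13.04 FPKM in Ctrl and 18.21 and 16.96 in cKO. The groups did not overlap, but the gap was small, and the call (log2 fold change 0.30, standard error 0.084, limma, adjusted p = 0.0372) was lost whichever library was left out (adjusted p between 0.0694 and 0.204). Part of its transcript, 17.7% of the 50-base words, is shared with *Snx21* on the opposite strand, which was not called. The 4 other thioesterases tested were not called. The peroxisomal *Acot4* had a log2 fold change of 0.28 (adjusted p = 0.0867), and *Acot7*, a mainly cytosolic enzyme, had 0.17 (adjusted p = 0.109), each with the cKO libraries above the Ctrl libraries. *Acot9*, a mitochondrial enzyme, and *Acot6* had 0.04 each, with overlapping groups.

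**Figure D2:**
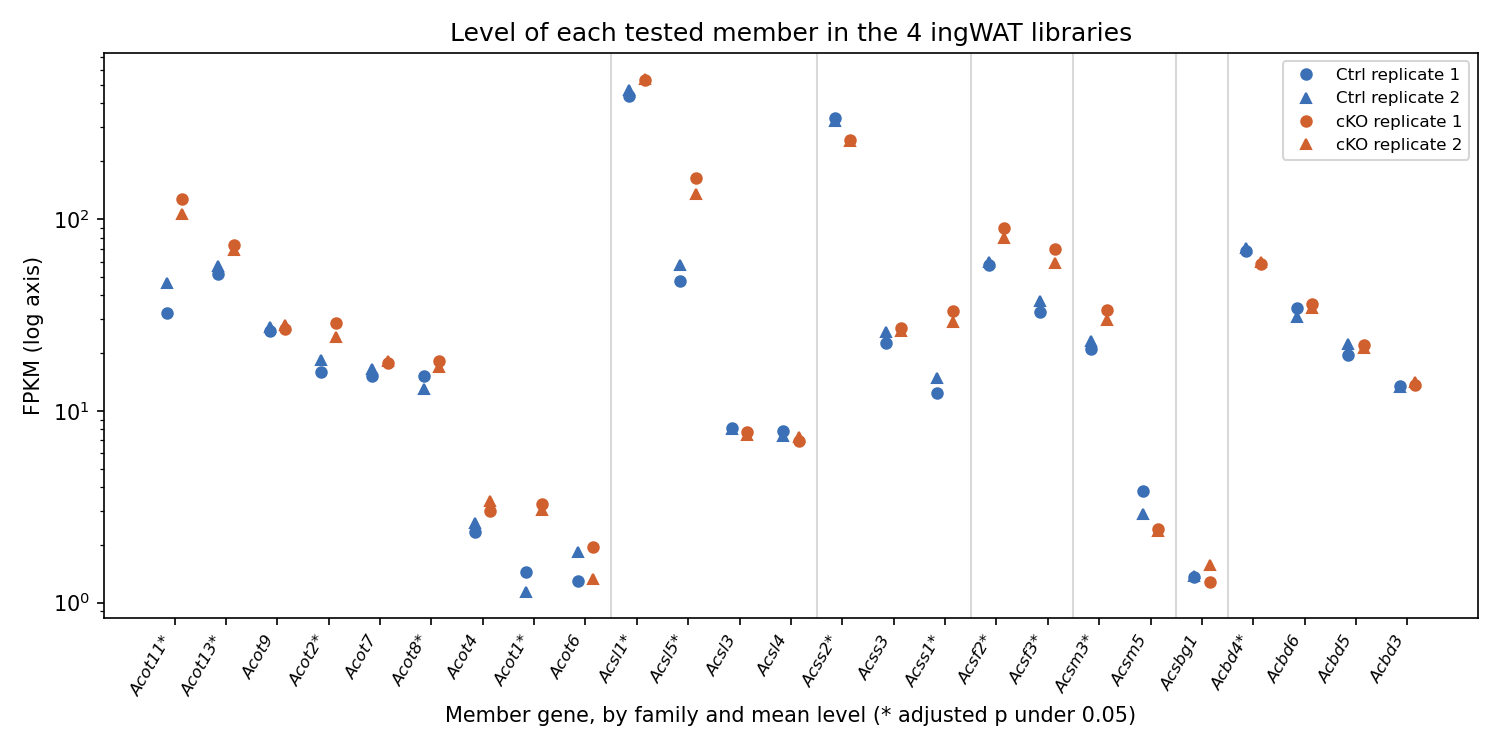
FPKM (log axis) of each of the 25 genes tested in the 2 Ctrl (blue) and the 2 cKO libraries (orange), ordered by family and by mean level; circles are replicate 1, triangles replicate 2, and an asterisk marks an adjusted p under 0.05. *Acsl1* and *Acss2* are above all others in every library, and the orange points of *Acot11*, *Acsl5* and *Acss1* stand well clear of the blue ones.

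Among the long-chain acyl-CoA synthetases, *Acsl5* rose far more than the much more abundant *Acsl1*. Of 5 listed *Acsl* genes 4 passed the filter on low values, and 2 of them were called, both higher. *Acsl5* (Entrez gene 433256, chr19:55251861-55296628), a synthetase of the mitochondrial outer membrane and the endoplasmic reticulum, had 47.40 and 57.38 FPKM in Ctrl and 163.15 and 135.01 in cKO. Each cKO library held more than both Ctrl libraries together. The mean went from 52.4 ± 7.06 to 149 ± 19.9 FPKM (SD, n = 2 each), 2.85 times as much (log2 fold change 1.49, standard error 0.115, limma, adjusted p = 0.000400). *Acsl5* is also a gene that the study itself picked for its fatty acid oxidation panel, so that its call here is not independent of that choice. By real-time PCR the study reported *Acsl5* significantly higher in cKO ingWAT. The study's primers for it are given because they show which stretch of the transcript its real-time PCR reads. Each matched the *Acsl5* transcript (GENCODE vM21) once, the reverse primer as its complement, at bases 886 to 904 and 968 to 987 of 4243, for a product of 102 bases.
Acsl5 forward: tcctgacgtttggaacggc
Acsl5 reverse: ctccctcaatccccacagac

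*Acsl1* (chr8:46471037-46536051), the main long-chain synthetase of adipocytes, had 437.80 and 471.00 FPKM in Ctrl and 526.98 and 538.51 in cKO. It was the most abundant of the 35 genes in every library, and the cKO libraries were above the Ctrl libraries by a narrow margin. Its call (log2 fold change 0.23, standard error 0.068, limma, adjusted p = 0.0470) was lost whichever library was left out, and under 10 of the 12 alternatives in all, and with quantile normalization the fold change was -0.0033. Of the summed FPKM of the family, *Acsl5* made up 9.45% and 10.5% in the Ctrl libraries and 23.1% and 19.6% in the cKO libraries, and *Acsl1* made up 86.9% ± 0.520 and 76.5% ± 2.46 (SD, n = 2 each). *Acsl3*, a synthetase of the endoplasmic reticulum and lipid droplets, and *Acsl4*, which prefers arachidonate, were between 6.95 and 8.11 FPKM in all libraries and had log2 fold changes of -0.08 each, neither called.

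The synthetases of acetate went in opposite directions. *Acss1* (Entrez gene 68738, chr2:150618111-150668240), the enzyme of the mitochondrial matrix, had 12.33 and 14.74 FPKM in Ctrl and 33.16 and 28.93 in cKO. Its mean was 2.29 times as high in cKO (log2 fold change 1.14, standard error 0.0997, limma, adjusted p = 0.000612). *Acss2* (Entrez gene 60525, chr2:155518043-155562743), the enzyme of cytosol and nucleus that feeds acetyl-CoA to lipid synthesis, had 334.26 and 325.84 FPKM in Ctrl and 258.83 and 254.46 in cKO. The replicates of each genotype lay close together and the groups were well apart, with 0.778 times as much in cKO (log2 fold change -0.36, standard error 0.059, limma, adjusted p = 0.00512). Without Ctrl replicate 1 the adjusted p of *Acss2* was 0.0804, and without Ctrl replicate 2 it was 0.0510. *Acss2* remained the more abundant in every library, yet the share of *Acss1* in the summed FPKM of the family was 3.68% ± 0.483 in Ctrl libraries against 9.87% ± 0.745 in cKO libraries (SD, n = 2 each). *Acss3*, a mitochondrial synthetase that takes propionate, was not called (log2 fold change 0.13, adjusted p = 0.236).

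**Figure D3:**
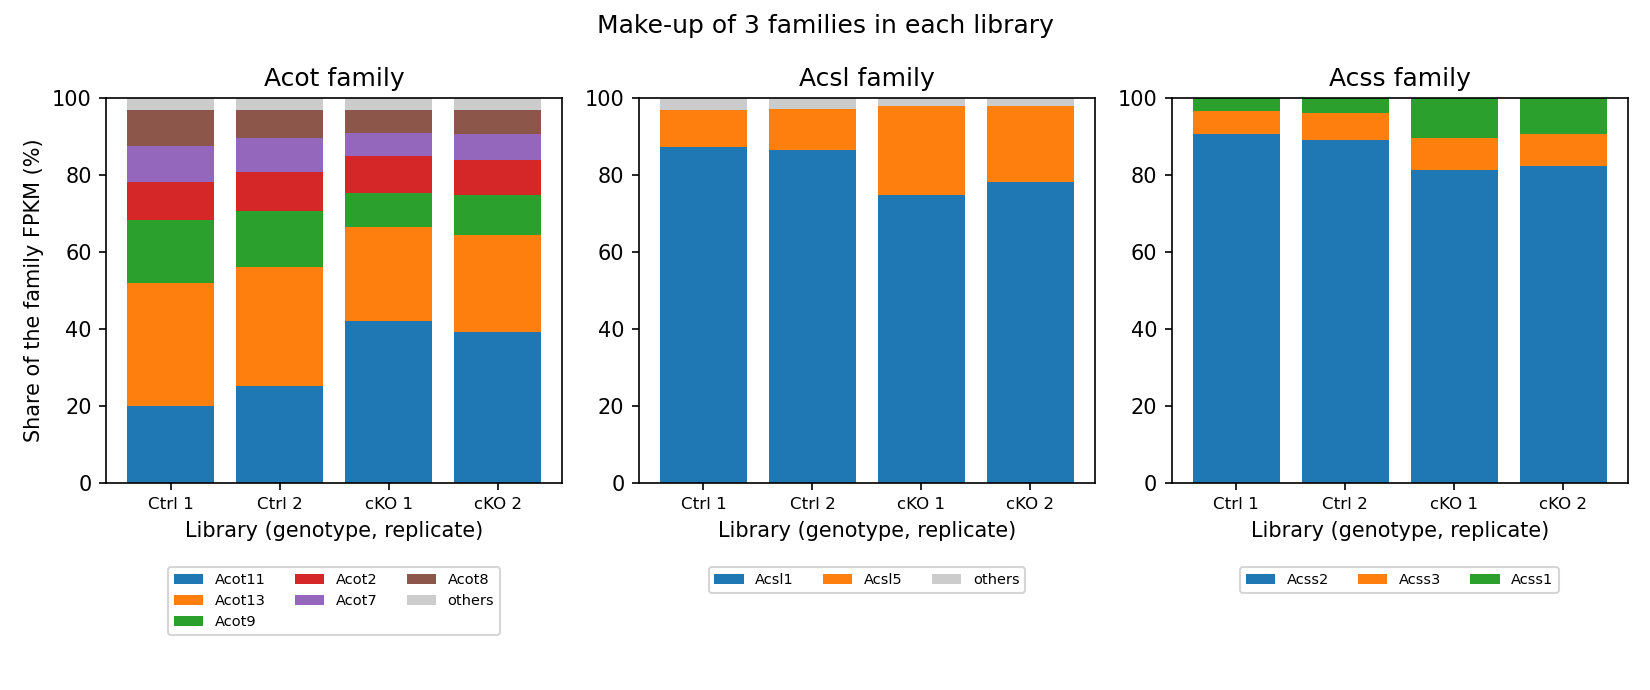
Share (percent) of each gene in the summed FPKM of the *Acot* (left), *Acsl* (middle) and *Acss* (right) family in each of the 4 libraries. In cKO the shares of *Acot11*, *Acsl5* and *Acss1* were larger by 18.1, 11.4 and 6.19 percentage points on average, and those of *Acot13*, *Acsl1* and *Acss2* were smaller.

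Both *Acsf* genes rose. *Acsf3* (Entrez gene 257633, chr8:122775470-122817887), the malonyl-CoA synthetase of mitochondria, had 32.79 and 37.15 FPKM in Ctrl and 69.73 and 58.79 in cKO. This was 1.84 times as much (log2 fold change 0.86, standard error 0.096, limma, adjusted p = 0.00133), and the call held whichever library was left out. *Acsf2*, a mitochondrial synthetase of medium-chain acids and the more abundant of the pair, had 57.79 and 59.44 FPKM in Ctrl and 89.33 and 79.87 in cKO. It rose by 0.52 on the log2 scale (standard error 0.068, limma, adjusted p = 0.00233; without Ctrl replicate 1 adjusted p = 0.0516). Of the 50-base words of *Acsf2* 37.2% also occur in a processed pseudogene, *Gm5540*, so that its level is uncertain.

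Of the medium-chain *Acsm* synthetases of mitochondria, 2 of the 4 listed could be tested. *Acsm3* had 21.09 and 23.00 FPKM in Ctrl and 33.34 and 29.64 in cKO, and it rose by 0.49 on the log2 scale (standard error 0.078, limma, adjusted p = 0.00457; without Ctrl replicate 1 adjusted p = 0.0712). It shares 27.0% of its 50-base words with *Eri2* on the opposite strand, which was at 1.95 to 2.60 FPKM. *Acsm5* pointed the other way without being called, at 3.81 and 2.90 FPKM in Ctrl and 2.42 and 2.35 in cKO (log2 fold change -0.36, adjusted p = 0.0724). *Acsbg1*, of the bubblegum family of the brain, was the gene just above the limit for testing, at 1.36 and 1.37 FPKM in Ctrl and 1.28 and 1.58 in cKO, with overlapping groups.

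Of 5 listed *Acbd* genes, which encode acyl-CoA-binding proteins, 4 could be tested, of which 0 rose and 1 fell. *Acbd4*, a protein of peroxisomal membranes, had 67.98 and 70.47 FPKM in Ctrl and 57.96 and 59.83 in cKO (log2 fold change -0.23, standard error 0.056, limma, adjusted p = 0.0233). The groups did not overlap, but the call was lost whichever library was left out (adjusted p between 0.0574 and 0.131). *Acbd6*, *Acbd5* of peroxisomes and *Acbd3* of the Golgi apparatus had log2 fold changes of 0.11, 0.05 and 0.06, none called. The summed level of the family was 135 to 137 FPKM in Ctrl and 130 FPKM in both cKO libraries.

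**Figure D4:**
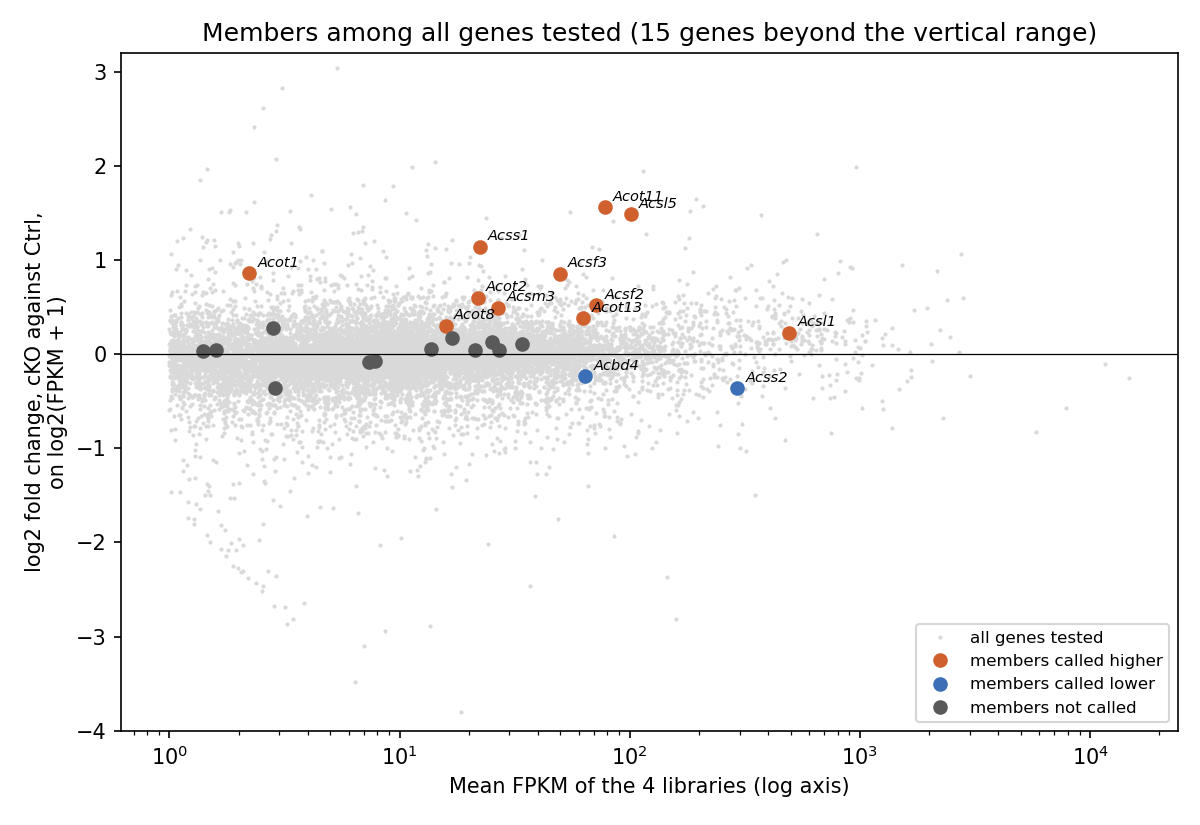
Log2 fold change, cKO against Ctrl, against the mean FPKM of the 4 libraries (log axis) for the 12658 genes tested (light grey), with the acyl-CoA genes called higher in orange, called lower in blue and not called in dark grey; 15 genes lie beyond the vertical range. The genes called higher spread from *Acot1*, near 2.22 FPKM, to *Acsl1*, near 494 FPKM.

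The other 10 genes had a mean under 1 FPKM and were not tested. Just below the limit was *Acss2os*, at 1.23 and 1.16 FPKM in Ctrl and 0.88 and 0.32 in cKO, an antisense transcript that shares 41.6% of its 50-base words with *Acss2* and, if the strand was not kept, cannot be told apart from it there. *Acot12*, a cytosolic thioesterase of acetyl-CoA, had 0.07 and 0.15 FPKM in Ctrl and 0.89 and 0.69 in cKO, or about 4 and 8 reads against 47 and 37. Without the filter on low values its log2 fold change was 0.69 (limma, adjusted p = 0.0328). *Acsl6*, a synthetase of brain and muscle, had 0.32 and 0.31 FPKM in Ctrl and 0.02 in both cKO libraries, or about 34 and 33 reads against 2 and 2, and without the filter its log2 fold change was -0.37 (limma, adjusted p = 0.0276). It went down together with the skeletal muscle markers, of which *Ckm*, the muscle creatine kinase, had 332.74 and 210.07 FPKM in Ctrl and 0.56 and 0.35 in cKO, and the part of muscle RNA in its value was not tested. *Acot3*, *Acot5*, *Acot10*, *Acsm2*, *Acsm4*, *Acsbg2* and *Acbd7* were at 0.18 FPKM or less in every library.

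The genes that make, carry and break down CoA, or handle acyl-CoA under other names, were set beside the families as a list of 32. Of these 31 were listed and 27 could be tested. Among the 27, 9 rose and 4 fell, where the shares of all genes tested were 12.0% and 13.8%. Whether the list departs from these shares was not tested, so its 4 falls are described gene by gene only. The median of its log2 fold changes was 0.07. Leaving out Ctrl replicate 1, Ctrl replicate 2 or cKO replicate 1 left 4, 5 and 4 genes called higher. *Dbi*, the acyl-CoA-binding protein itself, was more abundant than any of the 35 genes, at 2069 and 2139 FPKM in Ctrl and 2023 and 1973 in cKO, and was not called (log2 fold change -0.07, adjusted p = 0.557).

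In the synthesis of CoA, *Pank1*, a pantothenate kinase of the first step, had 7.89 and 10.16 FPKM in Ctrl and 19.39 and 17.34 in cKO (log2 fold change 0.96, standard error 0.115, limma, adjusted p = 0.00163). Its relative *Pank3* went the other way (log2 fold change -0.56, adjusted p = 0.00186), while *Pank2* and *Pank4* were not called. *Ppcs* and *Coasy*, enzymes of later steps, rose with log2 fold changes of 0.28 and 0.54 (limma, adjusted p = 0.0302 and 0.00194). *Slc25a42*, which carries CoA into mitochondria, had 12.50 and 15.26 FPKM in Ctrl and 25.11 and 25.37 in cKO (log2 fold change 0.82, standard error 0.092, limma, adjusted p = 0.00133). Both cKO libraries of *Pank1* and of *Slc25a42* lay well above both Ctrl libraries. *Slc25a17*, the peroxisomal carrier of CoA, rose by less (0.23, limma, adjusted p = 0.0245). So did *Nudt8* (0.32, adjusted p = 0.0467, near the threshold) and *Nudt19* (0.24, adjusted p = 0.0247), hydrolases of CoA. *Vnn3*, a pantetheinase, fell by 0.65 on the log2 scale.

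*Slc27a2*, a transporter and synthetase of very long-chain acids, had the largest fold change of the list (log2 fold change 2.05, limma, adjusted p = 0.000868). It was at 3.78 and 6.21 FPKM in Ctrl and 26.93 and 20.06 in cKO. This gene also stands in the study's list of brown fat-selective genes, and the study reported it significantly higher in cKO by real-time PCR. The peroxisomal importers of acyl-CoA split, with *Abcd2* at 93.48 and 91.18 FPKM in Ctrl and 50.73 and 58.94 in cKO (log2 fold change -0.74, standard error 0.078, limma, adjusted p = 0.00110) and *Abcd3* higher by 0.40 (adjusted p = 0.0123). *Aacs*, the cytosolic synthetase that turns acetoacetate into a lipid precursor, fell as its counterpart for acetate, *Acss2*, did (log2 fold change -0.43, adjusted p = 0.00332). It had 239.26 and 221.12 FPKM in Ctrl and 170.14 and 170.30 in cKO, with no overlap between the groups.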

How the data were processed

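The authors sequenced polyadenylated RNA of ingWAT from 2 Ctrl and 2 cKO libraries as single-end reads of 50 bases, with a protocol in which no step that marks the strand is described. The submitters' processing notes name HISAT2 2.0.4, RSEM 1.2.12 and the mm10 (GRCm38) build. The deposited values are FPKM per gene and library as computed by the authors, with no scaling between libraries stated. Samples were grouped by their titles, and all 4 columns were used.

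FPKM are not counts, so no count model was used. Genes with a mean of at least 1 FPKM were compared between genotypes as log2(FPKM + 1) in R 4.3.3 by the two-sided moderated test of limma 3.58.1 (eBayes, variance trend), and p-values were adjusted by Benjamini-Hochberg. The fit was tested on simulated data with less noise than the spread between replicates here. That test therefore does not show how reliable the calls in these data are. Depth was estimated from 299 short RNA genes, of whose low values 82.6% to 86.6% were whole reads within 0.1. Estimated reads per gene rest on this depth and on the full length of the longest matched transcript, so they may be too high. Sharing is the percent of 50-base words of a transcript found in transcripts of other genes (GENCODE vM21, both strands). Coordinates are from RefSeq for GRCm38.p6, in which all 35 gene IDs were found. Sequences were aligned with Biopython 1.88 and tables and figures made with pandas 2.3.3 and matplotlib 3.10.9 in Python 3.11.15.

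The genes, the marker lists and the list of other acyl-CoA genes were chosen with earlier results of these data known, and no set test was run. A search of promoter windows for motifs is not reported here. All 4 values are given for the genes called and for the most abundant gene of each family, and of the other acyl-CoA genes those called are named. Alternatives were a pseudocount of 0.1, no filter, a minimum of 5 FPKM, median-of-ratios scaling, quantile normalization, a replicate block, no variance trend, a threshold on fold change, and each library left out.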

Additional observations from a re-analysis of the deposited data

How the results depend on the processing

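*Acsl5*, *Acot11* and *Acss1* were called higher under all 12 alternatives, and *Acsf3* and *Acot1* under all that could be run except one that also asked for a log2 fold change no smaller than 1 in size, where 3 of the genes were called higher, 0 lower, 1 of the other acyl-CoA genes higher and 0 lower, and 233 of all genes. Over all genes 3269 were called. Without a filter on low values this was 1762, with 4 other acyl-CoA genes higher and a median log2 fold change of the acyl-CoA families of 0.058. Without a variance trend 1 of the genes was called lower and 5 other acyl-CoA genes higher. With each library left out in turn, where the lone library of a genotype is assumed to vary like the others, 787 to 2340 of all genes were called, 5 to 9 of the acyl-CoA genes higher and 0 to 1 lower, and of the others 4 to 7 higher and 3 to 4 lower, with a median of 0.18 to 0.23 for the families. The cause of these shifts was not tested. The fits with a library left out held fewer libraries, and the fit without a filter held more genes.

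The direction turned for *Acsl1* with quantile normalization (-0.0033), for *Acbd5* without Ctrl replicate 1 (-0.045; up to 0.138 without another library), for *Acot6* without Ctrl replicate 1 (-0.11) and without cKO replicate 1 (-0.13; up to 0.21), and for *Acsbg1* without cKO replicate 2 (-0.053; up to 0.126). The cause was not tested. *Acot4* was called with quantile normalization (adjusted p = 0.0357, limma) and under no other alternative. With the replicate block 10 of the genes were higher and 2 lower, with 3383 calls over all genes, and of the families only *Acsl1* lost its call (adjusted p = 0.102, limma). The replicate numbers were not shown to pair the libraries, since the deviations of same-numbered libraries correlated with r = 0.0148 across genes. The data hold 2 libraries a genotype and no read counts, so small differences, such as those of *Acot8*, *Acbd4* and *Acsl1*, could not be settled at this size.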
